A study of Mus musculus with 7 samples.

Results

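The genes described here are 5 of the CCN family (Cyr61, Ctgf, Nov, Wisp1 and Wisp2), the transcriptional co-activator Yap1, and Ankrd1 and Amotl2, which like Cyr61 and Ctgf are widely used as readouts of Yap1 activity. They were taken by gene name from every non-control probe of the array, which gave 9 probes of 8 genes out of 39429 probes. Wisp1 has 2 probes and each other gene has 1. All 9 probes entered the comparison and 8 of them were well above background on all 7 arrays, as the scanner software judged it, the exception being Nov. The current symbols of the CCN genes are Ccn1 (Cyr61), Ccn2 (Ctgf), Ccn3 (Nov), Ccn4 (Wisp1) and Ccn5 (Wisp2), and the older names on the array are kept here.

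RNA came from cultures of C2C12, an established mouse muscle line whose myoblasts fuse into myotubes when serum is withdrawn. The recipient cells received exosomes for 24 h, either EXO-Post BSA (4 arrays), released by other C2C12 cultures treated with BSA alone, or EXO-Post Palm (3 arrays), released by cultures treated with palmitate at 0.5 mmol/l. According to the paper the recipients were myotubes in medium without serum and the exosomes were collected after palmitate had been removed, whereas the array labels give the cell type as myoblast and do not mention the interval. All recipients therefore received exosomes, with no culture free of exosomes among the arrays used. The contrast is between exosome sources in 1 cell line, taken as C2C12 throughout. The labels' source name gives C2C12, but the number in their cell line field changes from sample to sample. The arrays are labelled as biological replicates, and the p-values measure the spread between arrays so labelled. Whether replicates of a group differ in exosome preparation or only in recipient culture was not established.

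CCN proteins are secreted, cysteine-rich matricellular proteins that bind integrins, LDL receptor-related proteins and heparan sulphate proteoglycans and modify how cells respond to matrix and growth factors. Yap1 and its paralogue Taz (Wwtr1) enter the nucleus when the Lats kinases of the Hippo cascade are inactive, and there they act with TEAD factors, which bind the sequence CATTCC. In muscle, Yap1 is associated with proliferation of myoblasts and with load and stretch, and TEAD sites are known from the regulatory regions of many muscle genes.

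The RefSeq promoter table held a window for 4 of the 8 genes (Cyr61, Ankrd1, Amotl2 and Yap1). The 250 bases before the start of each are shown because all 4 hold the TEAD sequence, with CATTCC or its complement GGAATG in capitals. Coordinates are those of GRCm38.p6, and each sequence reads 5′ to 3′ on the gene's own strand. The windows lie at chr3:145649986-145650235 (Cyr61, minus strand), chr19:36119845-36120094 (Ankrd1, minus strand), chr9:102717554-102717803 (Amotl2, plus strand) and chr9:8004597-8004846 (Yap1, minus strand).
Cyr61: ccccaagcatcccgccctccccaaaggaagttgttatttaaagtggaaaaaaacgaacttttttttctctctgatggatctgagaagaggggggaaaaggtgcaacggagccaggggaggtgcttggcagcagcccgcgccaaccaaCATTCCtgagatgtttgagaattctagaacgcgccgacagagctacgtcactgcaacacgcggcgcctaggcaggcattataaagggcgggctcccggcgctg
Ankrd1: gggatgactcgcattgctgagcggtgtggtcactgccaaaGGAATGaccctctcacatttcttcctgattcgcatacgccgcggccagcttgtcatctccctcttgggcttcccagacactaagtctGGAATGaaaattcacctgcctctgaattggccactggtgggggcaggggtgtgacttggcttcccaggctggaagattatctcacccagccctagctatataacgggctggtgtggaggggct
Amotl2: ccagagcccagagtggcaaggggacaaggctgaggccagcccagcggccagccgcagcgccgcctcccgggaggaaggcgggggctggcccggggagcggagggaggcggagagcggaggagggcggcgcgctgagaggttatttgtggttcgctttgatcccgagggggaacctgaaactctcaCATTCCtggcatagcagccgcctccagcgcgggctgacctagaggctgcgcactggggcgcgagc
Yap1: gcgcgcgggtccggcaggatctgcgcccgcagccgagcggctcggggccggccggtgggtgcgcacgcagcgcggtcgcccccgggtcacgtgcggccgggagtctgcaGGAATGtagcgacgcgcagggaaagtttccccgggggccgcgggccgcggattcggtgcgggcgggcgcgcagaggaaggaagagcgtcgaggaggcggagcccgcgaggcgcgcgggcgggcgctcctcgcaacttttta

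The first base of the match stands 103 bases before the start in Cyr61, 65 in Amotl2 and 141 in Yap1, and Ankrd1 has 2 matches, at 210 and 123 bases. Of all 32851 windows of this length in the table, 12.6% hold CATTCC on either strand. TATAAA, searched on both strands, was found in 12.4% of all windows and, among these genes, in Cyr61, 25 bases before its start. A CArG box, the sequence bound by serum response factor, was found in 1.47% of all windows and in none of the 4. Among 18 other YAP target genes described further on, 12 have a window and 3 of these hold CATTCC (Axl, Crim1 and Ptpn14). These matches describe letters in the windows, and binding was not measured.

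Values are given as log2 signal, the log2 of the scanner's processed intensity minus the 75th percentile of that array, so that 0 is that percentile and a difference of 1 is a doubling. A difference is EXO-Post Palm minus EXO-Post BSA. In RNA from a whole culture, fewer cells expressing a gene and less RNA per cell cannot be told apart. Levels of different probes are not set against each other, because probes differ in how strongly they hybridise. The 75th percentile intensity ranged from 549 to 1621, 48.5 to 70.3% of the probes on an array passed the software's background test, and correlations between arrays were 0.948 to 0.984 within groups and 0.947 to 0.984 between them. With 7 arrays, precision is limited by their number.

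All 9 probes had a lower mean with EXO-Post Palm, and 1 of them, that of Nov, passed limma's test at an adjusted p under 0.05. The Nov probe was well above background on only 1 of 3 EXO-Post Palm arrays, so it was tested through the EXO-Post BSA group. Over all 21589 tested probes, 0.533% passed, 0.463% as higher and 0.0695% as lower. The median difference was -0.66 over the 9 probes and -0.02 over all tested probes, of which 11373 were lower and 10216 higher. In 6 of the 9 probes every EXO-Post Palm array lay below every EXO-Post BSA array, as did 5.66% of all tested probes. The opposite order, with every EXO-Post Palm array above, held for none of the 9 and for 5.32% of all tested probes. An unadjusted limma p under 0.05 was found for 5 of the 9, all lower, and for 5.19% of all tested probes in that direction and 10% in either. Because the genes were chosen with earlier results of these data known, the counts beside these shares are descriptions only. The probes fell into those of Nov, Ctgf, Wisp2, Cyr61 and one of the Wisp1 probes, whose 95% intervals lay below 0, and those of Amotl2, Yap1, Ankrd1 and the other Wisp1 probe, whose intervals included 0.

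**Figure D1:**
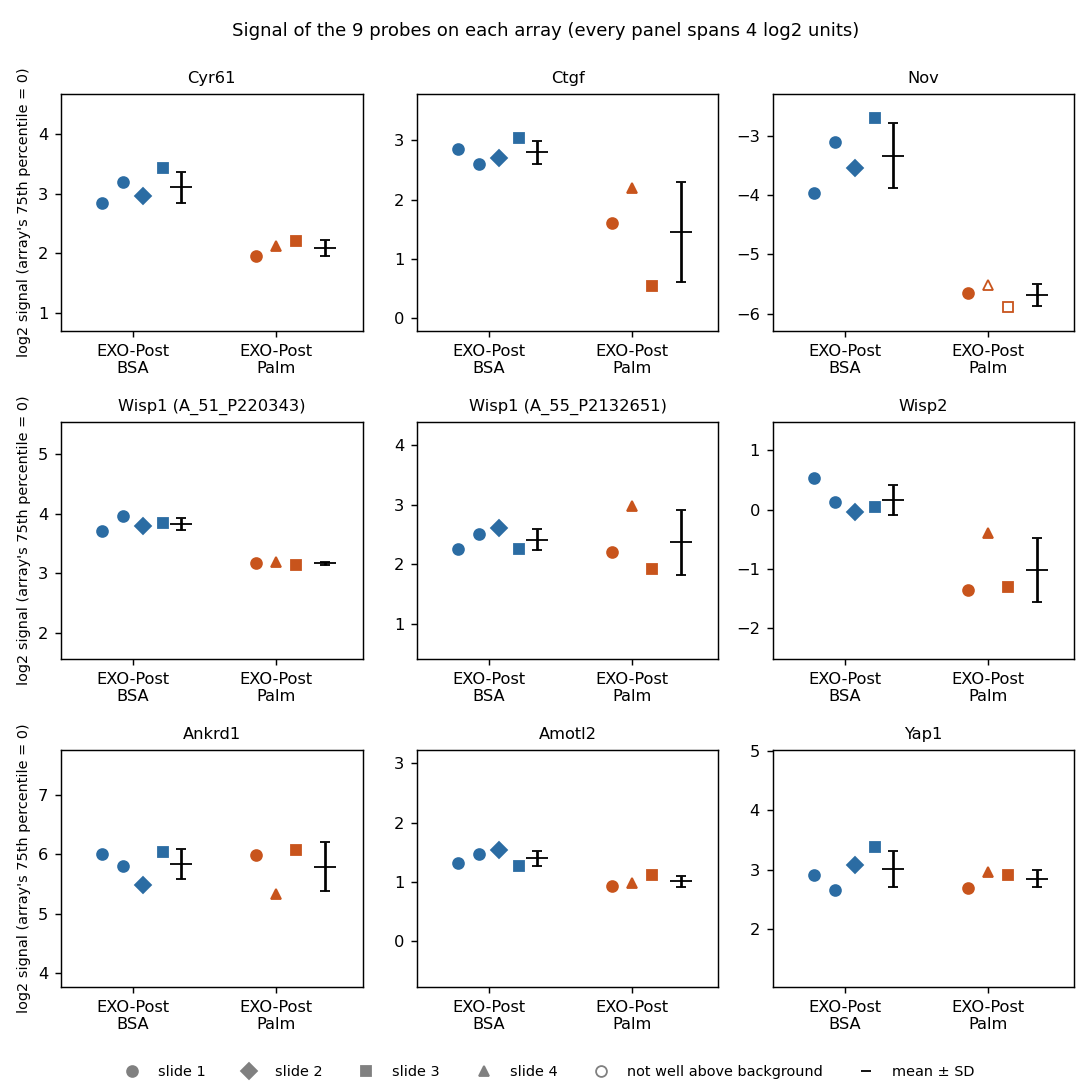
Log2 signal of each of the 9 probes on each of the 7 arrays, with 0 at the array's 75th percentile and every panel spanning 4 log2 units. Each point is 1 array, its shape gives the slide, open points are not well above background, and bars are mean ± SD of 4 EXO-Post BSA or 3 EXO-Post Palm arrays. The groups do not overlap for Cyr61, Ctgf, Nov, Wisp2, Amotl2 and the Wisp1 probe A_51_P220343.

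Yap1 itself, the co-activator through which the Hippo cascade acts on these targets, showed the groups intermingled. Its log2 signal was 2.91, 2.65, 3.07 and 3.39 in the EXO-Post BSA group (replicates 1 to 4, the order used throughout) and 2.68, 2.95 and 2.91 in the EXO-Post Palm group (replicates 1 to 3). The 3 EXO-Post Palm values lay inside the EXO-Post BSA range. The difference was -0.16 (95% interval -0.68 to 0.36, limma adjusted p = 0.851), an interval with values on both sides of 0. The probe, A_55_P1953459, lies at chr9:7932025-7932084 on the minus strand of mm9, the build of the array annotation. It reads messenger RNA, and neither the location nor the phosphorylation of the protein, through which Yap1 is chiefly controlled, was measured on these arrays.

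Cyr61 encodes a matricellular protein that binds integrins, promotes adhesion and angiogenesis, and is induced rapidly by serum and stretch. Its log2 signal was 2.85, 3.20, 2.96 and 3.43 with EXO-Post BSA and 1.95, 2.12 and 2.21 with EXO-Post Palm. All 3 EXO-Post Palm arrays lay below the lowest EXO-Post BSA array, by a gap of 0.64 on the log2 scale. The difference was -1.02 (SE 0.217, 95% interval -1.51 to -0.53), or 0.493 of the EXO-Post BSA signal, with a limma adjusted p of 0.120. An exact permutation test of this difference gave p = 0.0286, 2-sided, the smallest value that the 35 ways of parting 7 arrays into 4 and 3 allow.

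The slides give a further view of Cyr61. Both groups were present on slide 1 (replicates 1 and 2 of EXO-Post BSA beside replicate 1 of EXO-Post Palm) and on slide 3 (replicate 4 beside replicate 3), while the other slides carried 1 array each. The Cyr61 difference was -1.08 within slide 1 and -1.23 within slide 3. Across the alternative settings tried, it ranged from -1.29 to -0.91, with an adjusted p of 0.0526 to 0.540 by limma or the other test tried, so its size varied little and it passed under none of the adjusted tests. The probe, A_51_P252859, lies at chr3:145310187-145310246 on the minus strand (mm9).

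Ctgf, the CCN protein best known for its induction by TGF-beta and its part in fibrosis, had a log2 signal of 2.85, 2.60, 2.69 and 3.03 with EXO-Post BSA. With EXO-Post Palm the values were 1.61, 2.20 and 0.54. The EXO-Post BSA arrays were close together (SD 0.19, n = 4), whereas those of EXO-Post Palm were spread widely (SD 0.84, n = 3), with replicate 3 the lowest. The difference was -1.35 (SE 0.365, 95% interval -2.18 to -0.52, limma adjusted p = 0.226), and an exact permutation test gave p = 0.0286.

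The size of the Ctgf difference rests partly on that lowest array. Leaving out EXO-Post Palm replicate 3 gave -0.89, and leaving out replicate 2 of that group gave -1.72. Within slide 1 it was -1.11, and within slide 3, which holds the lowest array, it was -2.49. Every EXO-Post Palm array was nonetheless below every EXO-Post BSA array, with a gap of 0.41 between the nearest values. The probe, A_51_P157042, lies at chr10:24318281-24318340 on the plus strand (mm9).

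Nov, a CCN protein that is known to signal through Notch1 and integrins and to restrain myogenic differentiation, was the gene that passed the test. Its log2 signal was -3.97, -3.11, -3.55 and -2.70 with EXO-Post BSA and -5.65, -5.51 and -5.88 with EXO-Post Palm. The groups were separated by 1.54 on the log2 scale, against a spread of 1.27 among the EXO-Post BSA arrays and 0.37 among the EXO-Post Palm arrays. Nov fell by 2.34 with EXO-Post Palm (SE 0.310, 95% interval -3.05 to -1.64, limma adjusted p = 0.0192; exact permutation p = 0.0286). The fall and both tests rest partly on EXO-Post Palm replicates 2 and 3, where Nov was not well above background. The probe, A_52_P105537, lies at chr15:54584204-54584263 on the plus strand (mm9).

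The Nov probe is dim, so the size of this fall is uncertain. Its processed intensities were 74.0, 104, 72.6 and 111 with EXO-Post BSA, all well above background. With EXO-Post Palm they were 32.4, 14.3 and 9.35, and only replicate 1 was well above background. The probe was therefore tested through the group in which it is brighter, and it is not tested where all 7 arrays must be well above background. When signals that were not well above background were raised to the lowest signal that was on the same array, the difference was -1.55, a 2.92-fold higher mean with EXO-Post BSA, and it no longer passed (limma adjusted p = 0.144). Other background corrections gave -0.78 (normexp with an offset of 50, limma adjusted p = 0.161) and -1.06 (local background subtracted with a floor of 50, limma adjusted p = 0.0902).

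The direction for Nov was the same in every alternative that measured it and on both mixed slides, at -2.10 within slide 1 and -3.17 within slide 3. With slide as a fixed block the difference was -2.56, just over the threshold (limma adjusted p = 0.0523). It passed in 5 of the 7 fits that leave out 1 array. The limma adjusted p was 0.0777 when EXO-Post Palm replicate 1 was left out and 0.106 when replicate 3 was.

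Wisp1, a CCN gene first described as a target of Wnt signalling, was read by 2 probes that gave different results. On A_51_P220343 the log2 signal was 3.71, 3.96, 3.79 and 3.85 with EXO-Post BSA and 3.18, 3.19 and 3.14 with EXO-Post Palm. These groups were compact and did not overlap, with an SD of 0.11 over 4 arrays and 0.02 over 3. The difference was -0.66 (SE 0.182, 95% interval -1.08 to -0.25, limma adjusted p = 0.237; exact permutation p = 0.0286), with -0.66 within slide 1 and -0.71 within slide 3.

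On the other Wisp1 probe, A_55_P2132651, the log2 signal was 2.26, 2.52, 2.60 and 2.26 with EXO-Post BSA and 2.20, 2.98 and 1.93 with EXO-Post Palm. The EXO-Post Palm arrays stood on both sides of the EXO-Post BSA arrays, replicate 2 above all of them and replicates 1 and 3 below. The difference was -0.04 (95% interval -0.67 to 0.59, limma adjusted p = 0.975), and its sign turned under some settings.

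Both Wisp1 probes carry the accession of the same transcript record and start 3679 bases apart, at chr15:66754637-66754696 and chr15:66750958-66751017 on the plus strand (mm9). The comparison of the probes was chosen after their values were seen. On each array the signal of the first minus that of the second averaged 1.42 over the 4 EXO-Post BSA arrays (SD 0.17) and 0.80 over the 3 EXO-Post Palm arrays (SD 0.53). That shift of -0.62 did not pass an exact permutation test (p = 0.0571, 2-sided), and the spread of the EXO-Post Palm arrays on the second probe enters it.

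Wisp2 encodes the CCN protein that lacks the C-terminal module of the others. Its log2 signal was 0.52, 0.12, -0.04 and 0.05 with EXO-Post BSA and -1.35, -0.40 and -1.31 with EXO-Post Palm. Replicate 2 was the highest EXO-Post Palm array and still lay 0.36 below the lowest EXO-Post BSA array. The difference was -1.18 (SE 0.288, 95% interval -1.84 to -0.53, limma adjusted p = 0.172; exact permutation p = 0.0286).

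Wisp2 was the other CCN gene whose call depended on 1 array. Without EXO-Post Palm replicate 2 the difference was -1.50 and passed (limma adjusted p = 0.0393). It was -1.68 within slide 1 and -1.36 within slide 3. The probe, A_51_P390804, lies at chr2:163658717-163658776 on the plus strand (mm9). The sixth family gene, Wisp3 (now Ccn6), was not well above background on any array and was not tested.

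**Figure D2:**
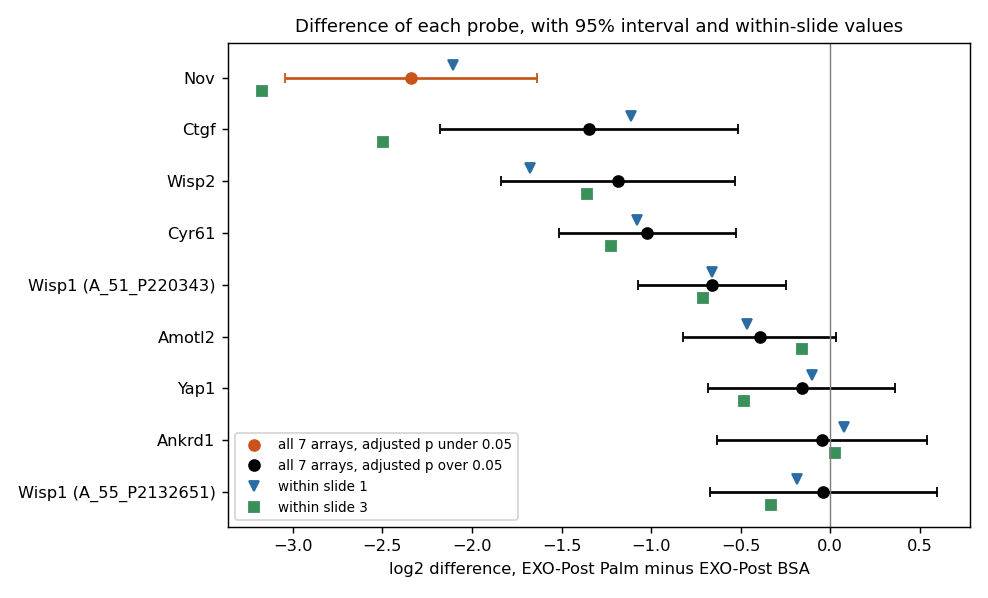
Log2 difference (EXO-Post Palm minus EXO-Post BSA) of each probe, with its 95% interval from limma over 7 arrays and the differences within slide 1 (triangles) and slide 3 (squares). The Nov interval, -3.05 to -1.64, belongs to the probe that passed, and the 4 lowest probes in the plot have intervals that include 0.

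The other readouts of Yap1 activity are Ankrd1 and Amotl2, and their differences from Cyr61 and Ctgf were not tested. Ankrd1, a muscle ankyrin repeat protein that associates with titin and is induced by stretch, had a log2 signal of 6.01, 5.81, 5.49 and 6.04 with EXO-Post BSA and 5.99, 5.33 and 6.07 with EXO-Post Palm. The highest and the lowest of all 7 arrays were both EXO-Post Palm arrays. The difference was -0.04 (95% interval -0.63 to 0.54, limma adjusted p = 0.969), with 0.08 within slide 1 and 0.03 within slide 3, and its sign turned under some settings. The probe, A_52_P120803, lies at chr19:36186809-36186868 on the minus strand (mm9).

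Amotl2, an angiomotin family protein, is a Yap1 target that also binds and restrains Yap1. Its log2 signal was 1.33, 1.48, 1.54 and 1.27 with EXO-Post BSA and 0.94, 0.98 and 1.11 with EXO-Post Palm. The groups did not overlap, but the nearest arrays were only 0.16 apart. The difference was -0.39 (95% interval -0.82 to 0.03, limma adjusted p = 0.535; exact permutation p = 0.0286), with -0.46 within slide 1 and -0.16 within slide 3. Its probe, A_51_P348804, lies at chr9:102635025-102635084 on the plus strand (mm9). The promoters of Ankrd1 and Amotl2, like that of Cyr61, hold CATTCC on 1 strand or the other in the windows printed above, and so does the promoter of Yap1.

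Across the 7 arrays Cyr61, Nov and Wisp1 (A_51_P220343) varied together. Pearson's r was 0.981 for Cyr61 and Nov, 0.978 for Nov and Wisp1 and 0.753 for Cyr61 and Ctgf. The values of Nov on EXO-Post Palm replicates 2 and 3 that enter here were not well above background. Part of this comes from the group means, since these probes differed in the same direction. For deviations from the group means r was 0.83 for Cyr61 and Nov, 0.74 for Nov and Wisp1, 0.64 for Ctgf and Wisp2 and -0.08 for Cyr61 and Ctgf. The positive values among these were the highest of any pair of the genes. The lowest were -0.62 for Ctgf and Amotl2, -0.52 for Ctgf and Ankrd1 and -0.51 for Wisp2 and Ankrd1, so the signs were mixed. These are descriptions over 7 arrays, and the probes read on any one array share its RNA, labelling and slide. Among 17182 genes, with 1 probe a gene, the 5 nearest to Cyr61 by r were Nov, Mtus1, Plekhj1, Cdon (a co-receptor that promotes myogenic differentiation) and the transcript ENSMUST00000105413. Those nearest to Nov were Cyr61, Ddost, Adra2a, Wisp1 and Ubr7, and those nearest to Ctgf were Acsf3, Sema6a, Tcf4, Loxl2 (a lysyl oxidase of the matrix) and Fam102b. An r of at least 0.9 was reached by 72 genes with Cyr61, 98 with Nov and 262 with Ctgf.

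Yap1 acts with Taz and the TEAD factors and is opposed by some Vgll proteins, and none of these 8 genes passed limma's test, although 3 had an unadjusted p under 0.05 (1 higher and 2 lower), as had 10% of all tested probes. Of the 8, 7 had a lower and 1 a higher mean, and the median difference was -0.50. The lowest differences were those of Vgll2 (-0.77, limma adjusted p = 0.375), a muscle cofactor of TEAD, and of Tead3 (-0.66) and Tead1 (-0.61). Wwtr1, which encodes Taz, was at -0.49 with overlapping groups. The highest were Tead4, the TEAD factor linked to myogenic differentiation, at -0.13, Vgll3 at -0.26 and Vgll4, which competes with Yap1 for TEAD, at 0.66 (limma adjusted p = 0.409). Vgll4 was the exception in this list, with all EXO-Post Palm arrays above all EXO-Post BSA arrays, though by only 0.02. Its difference was 0.97 within slide 1 and 0.02 within slide 3. In 3 of the 8 (Tead1, Tead2 and Vgll2) every EXO-Post Palm array lay below every EXO-Post BSA array. The shares of all tested probes were 5.32% above and 5.66% below.

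The Hippo kinases and their regulators showed no common direction. Of 24 genes, 22 were tested, 11 had a higher and 11 a lower mean, and the median difference was 0.01 (-0.11 when EXO-Post BSA replicate 2 was left out). None passed limma's test, and 1 of the 22 had an unadjusted p under 0.05, against 10% of all tested probes. That gene was Mob1a, a co-activator of the Lats kinases, at 0.87 (limma adjusted p = 0.482), which was well above background on 2 of 4 EXO-Post BSA arrays. Next highest were the atypical cadherin Fat1 (0.47) and the kinase Map4k4 (0.38), and the lowest were Dlg5 (-0.46), Lats1 (-0.44) and the LIM protein Ajuba (-0.32). Lats1 and Lats2 (-0.10), the kinases that phosphorylate Yap1, both had overlapping groups.

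Among 18 further genes reported as Yap1 targets in other cells, 17 were tested, 4 had a higher and 13 a lower mean, and the median difference was -0.18, which became -0.115 when EXO-Post Palm replicate 3 was left out. Of these, 1 passed, Igfbp3, which encodes a binding protein of insulin-like growth factors. It fell by 2.05 (SE 0.326, limma adjusted p = 0.0414), and 2 of 3 EXO-Post Palm arrays were well above background, so it too was tested through the group in which it is brighter. It passed in 1 of the 7 fits that leave out an array, that without EXO-Post Palm replicate 2. The next lowest were Tgfb2 at -1.32 (limma adjusted p = 0.426), which stood at -0.67 without EXO-Post Palm replicate 3, and Crim1 at -0.76. Crim1 had overlapping groups and was well above background on 3 of 4 EXO-Post BSA and 1 of 3 EXO-Post Palm arrays.

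Other genes of that list went the opposite way. F3, which encodes tissue factor, was at 1.47 (SE 0.262, limma adjusted p = 0.0595) with no overlap of the groups. It passed under some other settings, for example with slide as a random block (limma adjusted p = 0.0373). It did not pass with slide as a fixed block (limma adjusted p = 0.130) or with the replicate block (limma adjusted p = 0.252). Nor did it pass in any fit that leaves out 1 array (limma adjusted p = 0.0770 to 0.259). Nt5e (0.90) and Foxf2 (0.79) followed, each with an unadjusted p under 0.05 and overlapping groups. The list thus held genes at both ends of the range, as the plot of the 4 lists shows.

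Of 12 receptor genes for CCN proteins, all tested, 9 had a lower and 3 a higher mean, with a median difference of -0.37, and none passed limma's test, although 2 had an unadjusted p under 0.05, against 10% of all tested probes. The median was -0.19 without EXO-Post BSA replicate 4 and -0.22 when EXO-Post Palm replicate 3 was left out, and -0.16 with normexp and -0.17 with the floor. In some alternatives 1 receptor gene passed as lower. These were normexp, the floor, probes well above background on all 7 arrays, a trended, robust fit, and leaving out EXO-Post BSA replicate 4. The 2 genes with an unadjusted p under 0.05 were Itgam and Notch1. Itgam, the alpha chain of the integrin that binds Cyr61 on myeloid cells, was at -1.63 (limma adjusted p = 0.111). Notch1, to which Nov can bind, was at -1.18 (limma adjusted p = 0.293). Another Itgam probe had the opposite direction. The integrin chain Itgb1 was at -0.55, and the highest were Lrp1 (0.37), Itgb3 (0.07) and Lrp6 (0.05), a further Lrp6 probe having the opposite sign.

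**Figure D3:**
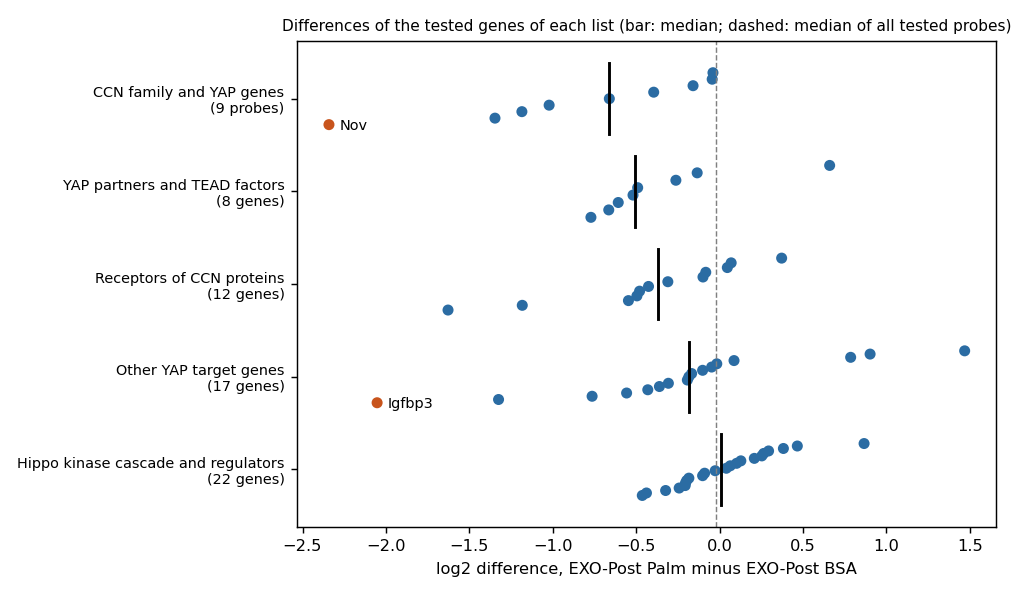
Log2 difference of every tested gene of the CCN and YAP group and of 4 lists of related genes, with 1 point a gene (the brightest probe) except for the 9 probes of the first row. Black bars are medians, -0.66, -0.50, -0.37, -0.18 and 0.01 from top to bottom, the dashed line is the median of all tested probes (-0.02), and named points passed limma's test.

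Muscle identity was checked with 10 markers, which were not chosen to tell the labelled myoblasts from the paper's myotubes. All 10 were well above background on all 7 arrays, Myog and Acta1 among them. None passed limma's test, and 2 had an unadjusted p under 0.05 (Des at 0.50 and Chrna1 at -0.89), against 10% of all tested probes. Over the 8 muscle markers with a value on every array, the summed relative signal was 471 to 596 with EXO-Post BSA and 416 to 503 with EXO-Post Palm. Without Acta1, the brightest, it was 362 to 456 and 311 to 337 and did not overlap. That separation rests on Chrna1, which remains in the sum, and the ranges overlap once its signal is taken out too. In the EXO-Post Palm group the log2 signal of Chrna1 was 6.24, 6.97 and 5.50, against 7.33, 6.80, 7.17 and 7.21 in the other group. Of the 10 muscle markers 3 had a higher and 7 a lower mean, with Myod1 at 0.03 and Myog at -0.07. Summed macrophage markers did not overlap between the groups, at 7.18 to 17.6 with EXO-Post BSA and 4.91 to 5.75 with EXO-Post Palm. This sum rests on Itgam, and without it the ranges were 1.18 to 1.71 and 1.40 to 2.52 and overlapped. The other tested macrophage markers, Emr1 and Csf1r, had differences of 0.58 and 0.45. Of the 6 macrophage markers 2 were well above background on all arrays and Lyz2 on none. Summed epithelial markers, at 0.662 to 0.979 and 0.471 to 0.611, did not overlap either, and this sum rests on Krt19 (-0.76). Without Krt19 the ranges overlapped, at 0.0740 to 0.119 and 0.0940 to 0.120, and the other tested epithelial marker, Krt8, was at 0.55. Of these 4 markers Epcam was well above background on no array. Endothelial (4.17 to 5.29 and 3.06 to 6.22) and adipocyte sums (0.131 to 0.233 and 0.125 to 0.169) overlapped. The part of these sums in the CCN differences was not tested.

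**Figure D4:**
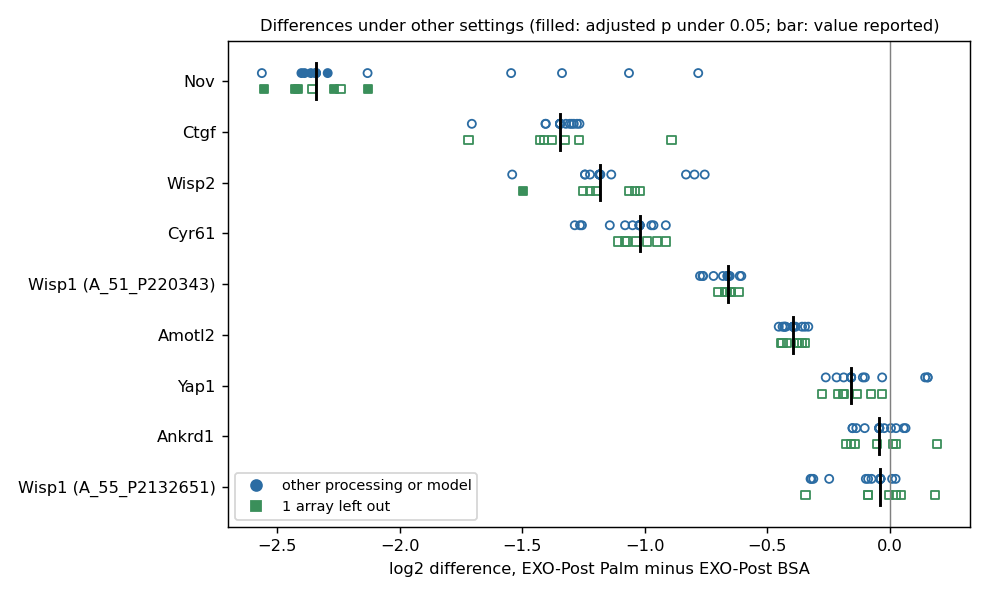
Log2 difference of each probe under the other settings, with circles for another processing or model, squares for fits that leave out 1 array, filled symbols for an adjusted p under 0.05 and black bars for the value reported. Nov spans -2.56 to -0.78, Cyr61 spans -1.29 to -0.91 with no filled symbol, and Ankrd1, Yap1 and the Wisp1 probe A_55_P2132651 cross 0.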

How the data were processed

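Cy-3-labelled RNA was measured on 1-colour Agilent mouse arrays, 4 EXO-Post BSA and 3 EXO-Post Palm. Per the file headers, the deposited intensity (processed signal) was background-subtracted by Agilent Feature Extraction 10.7.3.1 on 6 arrays and 11.5.1.1 on 1 (EXO-Post BSA replicate 3), whereas the submitters' processing notes name version 9.1. The authors also deposited log2 values, whose normalisation settings are not given in the sources used here; these served as an alternative. The paper names limma and Agi4x44PreProcess.

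Control spots and outlier spots were left out, repeat spots were averaged, and log2 intensity minus the 75th percentile of each array was tested in R 4.3.3 using limma 3.58.1 (with jsonlite 2.0.0 and version 1.17.8 of the data.table package), with Benjamini-Hochberg adjustment over the 21589 probes that were well above background in at least 75% of either group's arrays. The model was also run on simulated arrays with independent noise, which do not cover slide effects or the probe filter. Promoters (RefSeq, GRCm38.p6) were searched in Python 3.11.15. Figures used matplotlib 3.10.9, pandas 2.3.3 and numpy 2.4.6.

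The genes and lists were chosen with earlier results of these data known. Named genes were all members, the list genes that passed, the 3 highest and 3 lowest of each list, and the 5 nearest patterns of Cyr61, Ctgf and Nov; a few others are given for their role. Lats2 and Ptpn14 are in 2 lists. Where a list gene has several probes, the brightest is given. There were 22 alternatives, 7 of which leave out an array and filter the probes anew; the background corrections used the median in place of the mean spot signal, which 1 file lacks. Raising dim signals was added after seeing the data. Probe positions (mm9) were not assigned to exons, since no annotation of that build was used.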

Additional observations from a re-analysis of the deposited data

How the results depend on the processing

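Of 22 alternatives, 7 left out an array. By limma, 115 probes passed (100 higher and 15 lower). The count was 181 with slide as a random block, 173 with a trended, robust fit and 4 to 228 without 1 array. It was 0 without a probe filter (1900 at an unadjusted p under 0.05), and the methods' Student test gave 2108 unadjusted and 0 after Benjamini-Hochberg adjustment. The causes of these changes were not tested. With normexp the split was 97 higher and 31 lower. Of the 9 CCN and YAP probes, 1 passed. None passed with normexp (6 at an unadjusted limma p under 0.05), with the floor, the authors' values, no filter, slide as a fixed block or dim signals raised (5 each), with probes well above background on all 7 arrays (4, Nov not being tested), or by the Student test after adjustment (0, against 6 unadjusted). Without 1 array 0 to 2 passed, with 0 without EXO-Post Palm replicate 1 or replicate 3.

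For Nov, limma's adjusted p was 0.0696 with the authors' values (difference -1.34) and 0.110 without a filter. Signs turned for 3 probes whose intervals included 0. Yap1 was at 0.15 with normexp, 0.15 with the floor and 0.14 with the authors' values. Ankrd1 was at 0.0631 with quantile normalisation, 0.0036 with the percentile of probes well above background on all 7 arrays, 0.0557 with slide as a fixed block, 0.0240 with the replicate block, and -0.18 to 0.19 without 1 array. Wisp1 probe A_55_P2132651 was at 0.0226 with quantile normalisation, 0.0083 with that percentile, and -0.35 to 0.18 without 1 array.

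Replicate numbers are shared between the groups. Deviations of same-numbered arrays correlated at 0.12, -0.15 and -0.15, and no array correlated best with its own number. Replicate 1 of both groups was on slide 1. These correlations cannot show whether same-numbered arrays share a culture or an exosome batch, which was not tested. With the replicate block, limma called 0 of all probes (1933 at an unadjusted p under 0.05) and 0 of the 9 (5 unadjusted), and Nov was at -2.13 (limma adjusted p = 0.110).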
